A study of Mus musculus with 6 samples.

Results

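The nuclear genes for the respiratory chain and ATP synthase were taken as a group. They were the protein-coding genes of the deposited count table whose symbols start with Nduf, Sdha, Sdhb, Sdhc, Sdhd, Uqcr, Cyc1, Cox4, Cox5, Cox6, Cox7, Cox8 or Atp5, without pseudogene symbols and numbered gene models. The rule found 99 of 57186 genes. By symbol alone, 87 of these were classed as subunits. They were 36 of complex I, 4 of complex II, 9 of complex III, 20 of complex IV and 18 of complex V. The other 12 (Ndufaf and Sdhaf symbols) encode assembly factors. Ndufa4, Ndufa4l2 and the supercomplex factor Cox7a2l were counted with complex IV. The rule used symbols alone and no measured value.

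The libraries were bulk RNA-seq from tumours grown from MB49 cells, which are bladder carcinoma cells of a male mouse. Cells edited with CRISPR to lose the Y chromosome (Y-KO, 3 libraries) or given a scrambled CRISPR control (Y-Scr, 3 libraries) were grown subcutaneously in C57Bl/6J mice. Tumours were removed at 500 mm3, cells without the leukocyte antigen CD45 were sorted by flow cytometry, and all 6 libraries carry batch label 1. The labels used here do not give the age or sex of the mice, or whether replicates are separate animals, so a p-value here speaks of the spread among these libraries alone, and that spread may be technical. In bulk RNA, fewer cells of a type and less RNA per cell cannot be told apart.

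Complexes I to IV pass electrons from NADH or succinate to oxygen, and complexes I, III and IV pump protons across the inner mitochondrial membrane. Complex V, the ATP synthase, uses the returning protons to make ATP. Complex II is encoded wholly in the nucleus, whereas each of the other complexes combines many nuclear-encoded subunits with a few encoded by mitochondrial DNA.

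Library totals ran from 42040955 to 52951031 counts. All 5 testable chromosome Y genes of the marker list were called lower in Y-KO, which fits the library labels. Ptprc, the gene for CD45, was still measured after the sort: 293, 298 and 134 CPM (counts scaled to the library size) in Y-KO replicates 1 to 3, and 521, 577 and 601 CPM in Y-Scr. Markers of other cells also differed between the groups. The summed level of 11 T and NK cell markers was 173 to 285 CPM in Y-KO and 1067 to 1126 in Y-Scr, and all 11 were called lower. The sum of 5 neutrophil markers was 188 to 584 against 1219 to 1412 CPM (4 called lower), and that of 5 erythroid markers 0.931 to 1.07 against 230 to 272 CPM (5 called lower). The sum of 10 macrophage markers was 1381 to 2549 against 1498 to 1682 CPM (5 called higher), and that of 8 fibroblast markers 173 to 616 against 936 to 994 CPM (3 called lower). All 5 B cell markers were called lower. The sum of 11 urothelial and epithelial markers was 3277 to 3468 CPM in Y-KO and 2408 to 2736 in Y-Scr, 1.33 times as high and without overlap, most of it from the keratin genes Krt8 and Krt18; of 8 tested, 4 were called higher and 1 lower, and Upk2 and Upk3a had 0 counts. Y-KO replicate 3 lay far from replicates 1 and 2 in leukocyte, macrophage, neutrophil and fibroblast markers. The part of these cells in the results on respiratory genes was not tested.

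The nuclear-encoded genes, assembly factors included, differed little between Y-KO and Y-Scr tumours, and what difference there was lay mostly on the higher side. Of 95 genes that passed the filter on low counts, 11 were called higher in Y-KO, 0 lower and 84 not called (adjusted p under 0.05, edgeR's quasi-likelihood test with the Benjamini-Hochberg method). Among all 17837 genes tested, 16.1% were called, 7.82% higher and 8.27% lower, so the 11 of 95 calls were near the background in number and lay on 1 side. The median log2 fold change of the 95 was 0.20, against -0.03 over all genes tested, with 77 above 0 and 18 below. At an unadjusted p under 0.05 there were 38, of which 37 were higher. In 39 genes all Y-KO libraries lay above all Y-Scr libraries, in 2 (Uqcrc2 and Ndufaf5) below, and in 54 the groups overlapped; over all genes tested those shares were 17.5% above and 20.3% below. The sizes were small: 90 of the 95 had a log2 fold change under 0.58 in either direction, and 3 were over 1.

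These counts rested on single libraries. Without Y-Scr replicate 2, or without Y-Scr replicate 3, no member was called, where 5.55% and 5.57% of all genes tested were. Without Y-KO replicate 3 the count was 40 (38 higher, 2 lower), where 33.7% of all genes tested were called. The median log2 fold change of the members lay between 0.17 and 0.28 over all 6 removals. With library size alone as the scaling, 4 members were called higher and 2 lower, where the background was 4.09% higher and 12.6% lower. That scaling moved the median of all genes by -0.14 on the log2 scale; the members' median became 0.06, and their distance from the median of all genes was 0.23 under both scalings.

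**Figure D1:**
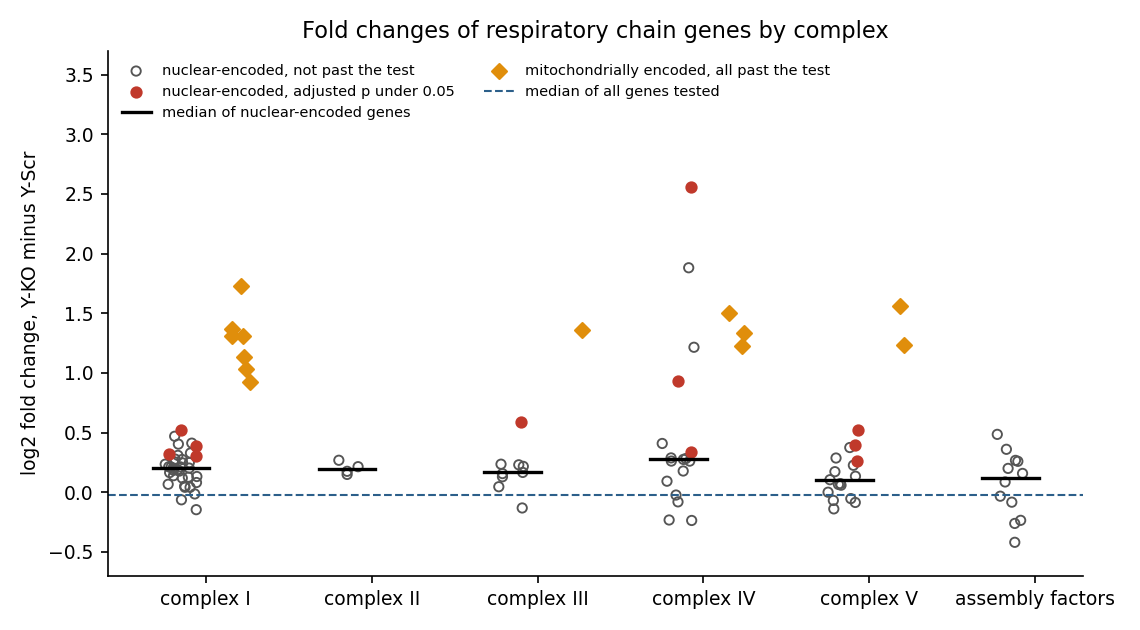
Each circle is 1 nuclear-encoded gene, placed by complex, with its log2 fold change (Y-KO minus Y-Scr, 3 libraries each) on the vertical axis; filled circles passed edgeR's quasi-likelihood test at an adjusted p under 0.05, black lines are medians, diamonds are mitochondrially encoded genes and the dashed line is the median of all genes tested. Most circles sit slightly above 0, Ndufa4l2 stands highest at 2.55, and the diamonds lie between 0.93 and 1.73.

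Summed by complex, the nuclear-encoded subunits were 1.12 to 1.16 times as high in Y-KO as in Y-Scr. Under the same TMM scaling the summed CPM of all genes tested was 1.10 times as high in Y-KO. Each of these ratios thus lay only a little above that background. Complex I summed to 2535 ± 68.3 CPM in Y-KO (SD, n = 3), against 2177 ± 199 in Y-Scr, a ratio of 1.16. Complex II stood at 729 ± 8.20 against 633 ± 20.1 CPM, a ratio of 1.15. Complex III stood at 1236 ± 29.9 against 1106 ± 87.1 CPM, a ratio of 1.12, and its highest Y-Scr library lay within 1 CPM of its lowest Y-KO library. Complex IV stood at 2392 ± 54.2 against 2075 ± 204 CPM, and complex V at 4892 ± 47.3 against 4306 ± 287 CPM, ratios of 1.15 and 1.14. In each complex Y-Scr replicate 1 was the highest of its group and the Y-KO libraries lay close together. As a share of all counts, with no further scaling, the 99 genes took 1.15%, 1.12% and 1.16% in Y-KO and 1.18%, 1.07% and 1.05% in Y-Scr, and the groups overlapped.

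The mitochondrially encoded partners of the same complexes differed far more. All 13 protein-coding mitochondrial transcripts were called higher in Y-KO, with a median log2 fold change of 1.31 (0.93 to 1.73) and 1.17 with library size alone as scaling. Their sum was 65093 ± 356 CPM in Y-KO, against 27075 ± 382 in Y-Scr, 2.40 times as high. Within a library, the ratio of the mitochondrially encoded to the nuclear-encoded sum does not depend on scaling. For complex I it was 9.76, 10.0 and 9.30 in Y-KO and 4.28, 4.79 and 5.05 in Y-Scr. For complex III it was 9.15, 9.25 and 9.56 against 3.75, 4.13 and 4.32. For complex IV it was 12.03, 12.4 and 11.9 against 5.19, 6.30 and 6.54. That ratio rests almost wholly on mt-Co1, with a mean of 28762 of the 28963 CPM in Y-KO and 12298 of 12373 in Y-Scr. The groups did not overlap in any of these complexes, although 3 libraries against 3 allow no exact two-sided permutation p under 0.1. For complex V the ratio was 0.0165 ± 0.0018 against 0.0064 ± 0.0005, and rests on low levels of mt-Atp6 and mt-Atp8. The levels of these transcripts and of mt-Nd3, mt-Nd4l, mt-Co2 and mt-Co3 were far below those of the other mitochondrial transcripts, and the cause was not tested.

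**Figure D2:**
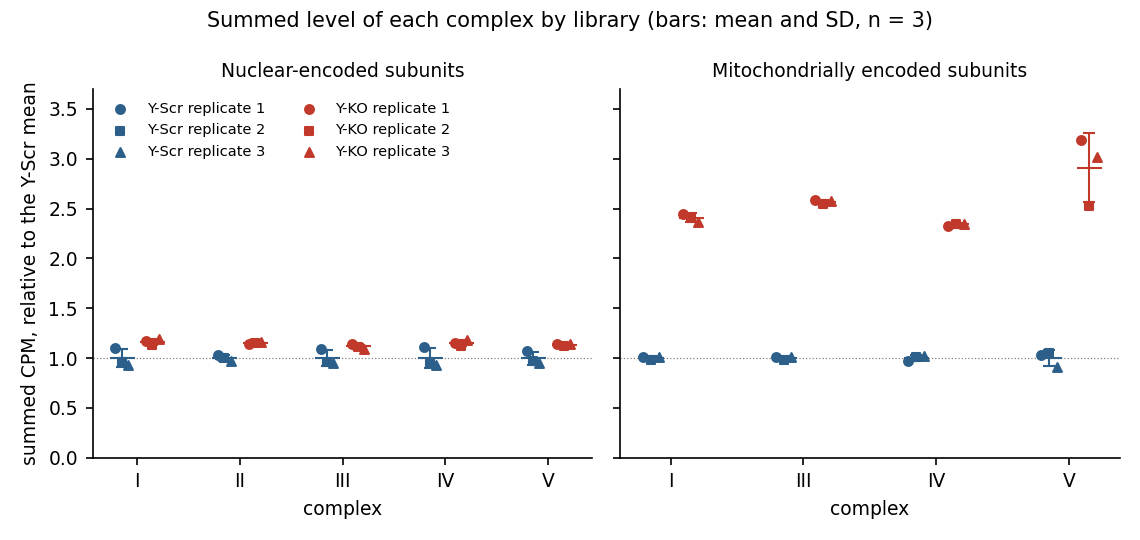
Summed CPM of each complex in every library, divided by the Y-Scr mean of that complex, for nuclear-encoded subunits (left) and mitochondrially encoded subunits (right); bars are the mean and SD of 3 libraries. The Y-KO means lie between 1.12 and 1.16 on the left and between 2.34 and 2.91 on the right. For the summed CPM of all genes tested, mitochondrially encoded genes included, the same ratio was 1.10.

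Promoter stretches are shown for called members that hold a searched motif within the printed stretch, and for Cox6a1, the member with the highest CPM among those with the strict NRF1-type motif, because these motifs are known from respiratory genes. The motifs, searched on both strands, were of 3 types. The NRF1 type was searched in a strict palindromic form, which is the first run of capitals in Cox6a1, and in a looser form with any base at the sixth position, which includes the strict form and is also the second run in Cox6a1. The ETS type was CCGGAAG and the YY1 type AAGATGGC. The window ran from 250 bases before to 50 after the RefSeq start on build GRCm38.p6. The stretches run 5′ to 3′ on the gene's strand, from 180 bases before the start to 20 after it, with motif matches on either strand in capitals. They lie at chr2:90904702-90904901 (minus strand) for Ndufs3, chr19:7217597-7217796 (minus strand) for Cox8a and chr5:115348939-115349138 (minus strand) for Cox6a1.
Ndufs3: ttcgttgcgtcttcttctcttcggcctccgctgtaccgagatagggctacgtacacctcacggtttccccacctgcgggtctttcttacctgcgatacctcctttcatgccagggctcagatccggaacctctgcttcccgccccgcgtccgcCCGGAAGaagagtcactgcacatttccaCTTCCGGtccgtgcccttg
Cox8a: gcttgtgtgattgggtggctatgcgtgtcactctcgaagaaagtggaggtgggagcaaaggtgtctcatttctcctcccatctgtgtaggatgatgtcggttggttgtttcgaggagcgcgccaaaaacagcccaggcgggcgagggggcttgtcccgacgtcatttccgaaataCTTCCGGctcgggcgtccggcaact
Cox6a1: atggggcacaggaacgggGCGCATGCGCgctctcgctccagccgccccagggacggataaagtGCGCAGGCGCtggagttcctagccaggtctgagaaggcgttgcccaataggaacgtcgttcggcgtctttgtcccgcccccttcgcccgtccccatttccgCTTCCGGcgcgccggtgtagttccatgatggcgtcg
In Ndufs3 an ETS-type match lies on each side of the start, in Cox8a 1 match spans the start, and in Cox6a1 both NRF1-type matches lie upstream of the ETS-type match. The match in Ndufs7, also a called member, lies downstream of the stretch printed for the others, so its promoter is not shown. A match is a description of letters and not a binding site.

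Of the 99 genes, 80 had a RefSeq promoter entry (85 windows), 7 of them called, and 45 of the 80 held at least 1 of the motifs. The strict NRF1-type motif was in 8.24% of the member windows, 0.971% of all 32851 windows and 1.77% of the windows of tested genes. The looser form was in 25.9%, against 4.60% and 8.68%. CCGGAAG was in 24.7%, against 8.86% and 15.97%, and AAGATGGC in 12.9%, against 2.75% and 4.01%. The members with and without each motif had like fold changes: median log2 fold changes of 0.16 and 0.18 for the strict NRF1 type, 0.15 and 0.20 for the looser form, 0.17 and 0.18 for CCGGAAG, and 0.20 and 0.18 for AAGATGGC. Of the called members with a window, 0 held an NRF1-type motif, 2 (Ndufs3 and Cox8a) the ETS type and 1 (Ndufs7) the YY1 type.

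In complex I, which oxidises NADH and reduces ubiquinone, 4 of 36 subunits were called higher and 0 lower, with a median log2 fold change of 0.21 and a range from -0.15 to 0.52. The background for this and every complex below was 16.1% of all genes tested called, 7.82% higher and 8.27% lower. The share called was 11.1% in complexes I and III, 17.6% in IV and V, and 0 in II and the assembly factors. With so few calls, differences between complexes were not tested. Ndufv1 (chromosome 19, 4057384 to 4062806, GRCm39), the flavoprotein subunit that takes electrons from NADH, stood at 172, 178 and 168 CPM in Y-KO, against 134, 111.6 and 116 in Y-Scr. All Y-KO libraries lay above all Y-Scr libraries (log2 fold change 0.52, SE 0.09, edgeR adjusted p = 0.0071). Ndufs7 (chromosome 10, 80084955 to 80092628), which carries the last iron-sulfur cluster before ubiquinone, stood at 84.7, 83.7 and 87.1 against 73.3, 62.0 and 60.3 CPM. There was no overlap, and Y-Scr replicate 1 was nearest to Y-KO (log2 fold change 0.39, SE 0.10, edgeR adjusted p = 0.0314). Ndufs3 (chromosome 2, 90724978 to 90735171), a further subunit of the ubiquinone-reducing part, stood at 72.8, 66.5 and 67.5 against 59.2, 54.5 and 51.6 CPM. Its difference was smaller (log2 fold change 0.32, SE 0.09, edgeR adjusted p = 0.0461). Ndufc2 (chromosome 7, 97049210 to 97057009), an accessory subunit of the membrane arm, stood at 95.3, 90.8 and 91.8 against 81.3, 71.2 and 73.1 CPM, the called member nearest to the threshold (log2 fold change 0.30, SE 0.09, edgeR adjusted p = 0.0486).

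Ndufs6, an accessory subunit, stood at 52.3, 47.6 and 41.2 CPM in Y-KO, against 39.7, 32.2 and 30.1 in Y-Scr, just outside the threshold (edgeR adjusted p = 0.0506). Ndufa2, the complex I gene with the highest level per length (158 RPKM, which is CPM per kilobase of exon), stood at 108, 101 and 99.8 against 91.2, 75.1 and 67.0 CPM (edgeR adjusted p = 0.0528); 11.5% of its exon bases are shared with another gene.

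In complex II, succinate dehydrogenase, which also works in the citrate cycle, 0 of 4 subunits were called by edgeR's quasi-likelihood test, and 2 had an unadjusted p under 0.05. DESeq2 and limma-voom each called 1 higher. The log2 fold changes ran from 0.15 to 0.27. Sdhc, a membrane anchor, stood at 173, 176 and 180 CPM in Y-KO, against 155, 145 and 139 in Y-Scr (log2 fold change 0.27, SE 0.08, edgeR adjusted p = 0.0524). Sdha, the flavoprotein, stood at 254, 261 and 289 against 232, 235 and 227 CPM (edgeR adjusted p = 0.106). For both genes, and for the anchor Sdhd, the groups did not overlap. For the iron-sulfur subunit Sdhb they did, at 81.3, 89.8 and 76.9 against 81.2, 69.6 and 68.8 CPM.

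In complex III, which passes electrons from ubiquinol to cytochrome c, 1 of 9 subunits was called, with a median log2 fold change of 0.17. The gene Uqcrq (chromosome 11, 53318749 to 53321658), a small subunit next to cytochrome b, stood at 136, 121 and 118 CPM in Y-KO, against 94.0, 79.9 and 75.9 in Y-Scr. In every library of Y-KO the level was well above that of Y-Scr (log2 fold change 0.58, SE 0.11, edgeR adjusted p = 0.0088). Uqcrc2, a core subunit, lay the other way without a call, at 139, 148 and 154 against 168, 157 and 158 CPM (log2 fold change -0.13, SE 0.08, edgeR adjusted p = 0.311); 19.7% of its exon bases are shared with other genes. Its partner Uqcrc1 stood at 213, 213 and 193 against 189, 166 and 170 CPM (log2 fold change 0.23, edgeR adjusted p = 0.105). Uqcrh, the hinge subunit and the complex III gene with the highest level per length (177 RPKM), had a log2 fold change of 0.05 and overlapping groups.

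In complex IV, cytochrome c oxidase, which reduces oxygen, 3 of 17 tested genes were called higher: Ndufa4l2, Cox8a and Cox6a2. That was 17.6%, where 16.1% of all genes tested were called and 7.82% were called higher. Cox8a (chromosome 19, 7192518 to 7194981), a small membrane subunit, had the highest level per length of all 99 genes (540 RPKM) and stood at 354, 379 and 388 CPM in Y-KO, against 327, 283 and 277 in Y-Scr. Y-Scr replicate 1 lay nearer to Y-KO replicate 1 than to its own group (log2 fold change 0.34, SE 0.09, edgeR adjusted p = 0.0349). Cox4i1, the subunit through which ATP regulates the enzyme, stood at 449, 447 and 471 against 420, 353 and 347 CPM without a call (log2 fold change 0.29, edgeR adjusted p = 0.0635). Cox7b was the tested complex IV gene with the lowest fold change apart from Cox7a1, at 79.4, 70.7 and 85.7 against 105, 84.4 and 87.4 CPM (log2 fold change -0.23, edgeR adjusted p = 0.216), and its groups overlapped. The genes Cox8b and Cox8c had 0 counts in every library, and Cox7b2 had 4 counts in all of Y-KO and 30 in all of Y-Scr.

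The largest fold changes were in paralogues of complex IV subunits that stood at low levels in these libraries. Ndufa4l2 (chromosome 10, 127350836 to 127353023), a paralogue of Ndufa4 known as a target of hypoxia-inducible factor, stood at 6.11, 5.01 and 20.6 CPM in Y-KO, against 1.74, 2.02 and 1.64 in Y-Scr. Every Y-KO library was above every Y-Scr library, and Y-KO replicate 3 was far above the other Y-KO libraries (log2 fold change 2.55, SE 0.52, edgeR adjusted p = 0.0136). Its log2 fold change fell to 1.63 when Y-KO replicate 3 was left out (edgeR adjusted p = 0.00022). Removal of any single Y-Scr library ended its call (edgeR adjusted p of 0.0702, 0.0625 and 0.0783 for replicates 1 to 3), with log2 fold changes of 2.51 to 2.66. Ndufa4 itself stood at 99.6, 96.2 and 86.9 against 113, 95.5 and 90.2 CPM, with a log2 fold change of -0.08 and overlapping groups. Ndufa4l2 made up 7.18%, 6.16% and 23.0% of the summed RPKM of the pair in Y-KO and 1.89%, 2.60% and 2.25% in Y-Scr.

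Cox6a2 (chromosome 7, 127804607 to 127805559), the form of heart and skeletal muscle, stood at 8.48, 5.08 and 6.36 CPM in Y-KO, against 3.00, 3.30 and 4.11 in Y-Scr, with no overlap (log2 fold change 0.94, SE 0.25, edgeR adjusted p = 0.0381). Its call was also lost without Y-KO replicate 1 (edgeR adjusted p = 0.120) or without any 1 Y-Scr library (0.0843 to 0.139). Its share of the RPKM of the pair with Cox6a1 was 2.66% ± 0.61 in Y-KO and 1.75% ± 0.48 in Y-Scr (SD, n = 3), and those shares overlapped. The summed level of 8 skeletal muscle markers was 2.27 to 4.76 CPM in Y-KO, against 3.90 to 5.12 in Y-Scr, with 3 testable and 0 called. The muscle form Cox7a1 was at 0.619, 1.11 and 2.38 against 1.74, 1.30 and 1.79 CPM, without a call (log2 fold change -0.24, SE 0.50, edgeR adjusted p = 0.795). Cox4i2, the form of lung and of hypoxic cells, was at 1.77, 0.812 and 0.0227 against 0.292, 0.224 and 0.187 CPM. Its Y-KO libraries lay both above and below the Y-Scr libraries (log2 fold change 1.88, SE 1.09, edgeR adjusted p = 0.286), and without Y-KO replicate 3 it was called (log2 fold change 2.45, edgeR adjusted p = 0.0135). Cox6b2, the testis form, was under 1 CPM in every library and not called (log2 fold change 1.21, SE 0.71, edgeR adjusted p = 0.294).

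**Figure D3:**
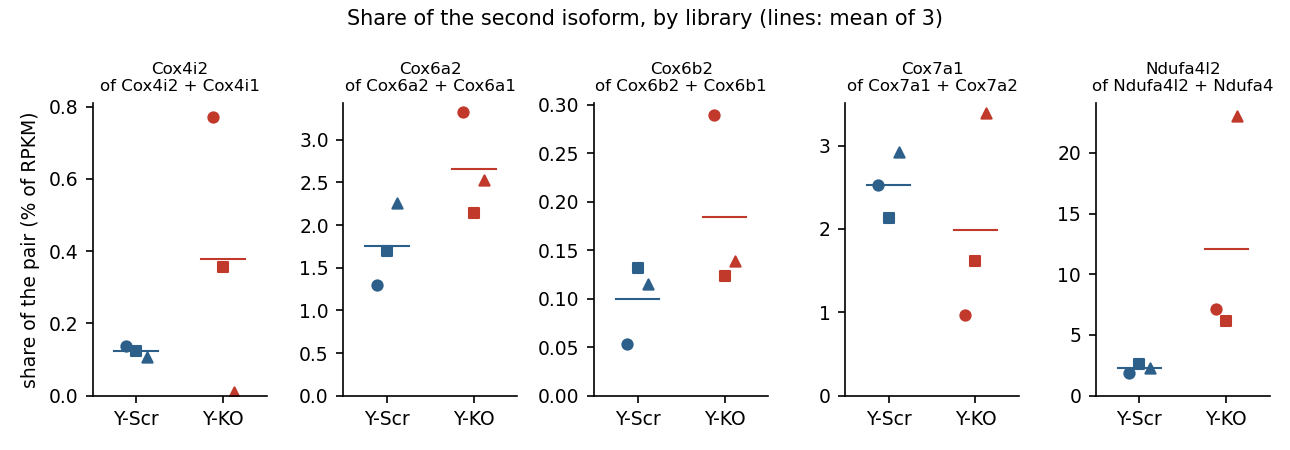
Percentage of the summed RPKM of each paralogue pair taken by the less abundant paralogue, in each library (circle replicate 1, square replicate 2, triangle replicate 3; lines are means of 3; each panel has its own axis from 0). Ndufa4l2 takes 6.16% to 23.0% in Y-KO and 1.89% to 2.60% in Y-Scr, whereas the groups overlap in the other panels.

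In complex V, 3 of 17 tested genes were called higher, and the median log2 fold change was 0.10, or -0.04 with library size alone as scaling. The share called was 17.6%, where 16.1% of all genes tested were called and 7.82% were called higher. Atp5g1 (chromosome 11, 95959678 to 95966496) is 1 of the genes for the ring subunit c. It stood at 153, 152 and 128 CPM in Y-KO, against 109, 96.6 and 96.5 in Y-Scr, with no overlap (log2 fold change 0.52, SE 0.10, edgeR adjusted p = 0.0105). Further genes for the same protein, Atp5g2 and Atp5g3, had log2 fold changes of 0.10 and 0.29 and no call. Atp5d (chromosome 10, 79974466 to 79981652), the delta subunit of the central stalk, stood at 273, 289 and 300.1 against 238, 211 and 206 CPM (log2 fold change 0.39, SE 0.09, edgeR adjusted p = 0.0176). Atp5a1 (chromosome 18, 77861429 to 77870569), the alpha subunit of the catalytic head, stood at 1038, 1042 and 1023 against 901, 838 and 850.3 CPM (log2 fold change 0.26, SE 0.06, edgeR adjusted p = 0.0245). Its values in Y-KO lay within a narrow band above those in Y-Scr.

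Atp5b, the beta subunit gene, which had the highest CPM of the group, stood at 1529, 1524 and 1548 CPM in Y-KO, against 1465, 1334 and 1287 in Y-Scr, without overlap and without a call (log2 fold change 0.17, SE 0.07, edgeR adjusted p = 0.121). Gamma and epsilon subunit genes Atp5c1 and Atp5e had log2 fold changes of -0.07 and -0.05 and overlapping groups. Of the 5 genes of the catalytic head and central stalk, 2 were called and 3 were not, and the difference among them was not tested. Atp5o, for the stalk subunit OSCP, stood at 33.5, 35.2 and 33.3 against 29.3, 24.1 and 25.3 CPM (edgeR adjusted p = 0.052), with 47.9% of its exon bases shared with another gene. A further gene ID with the symbol Atp5o, whose exons are wholly shared, had 0 counts.

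**Figure D4:**
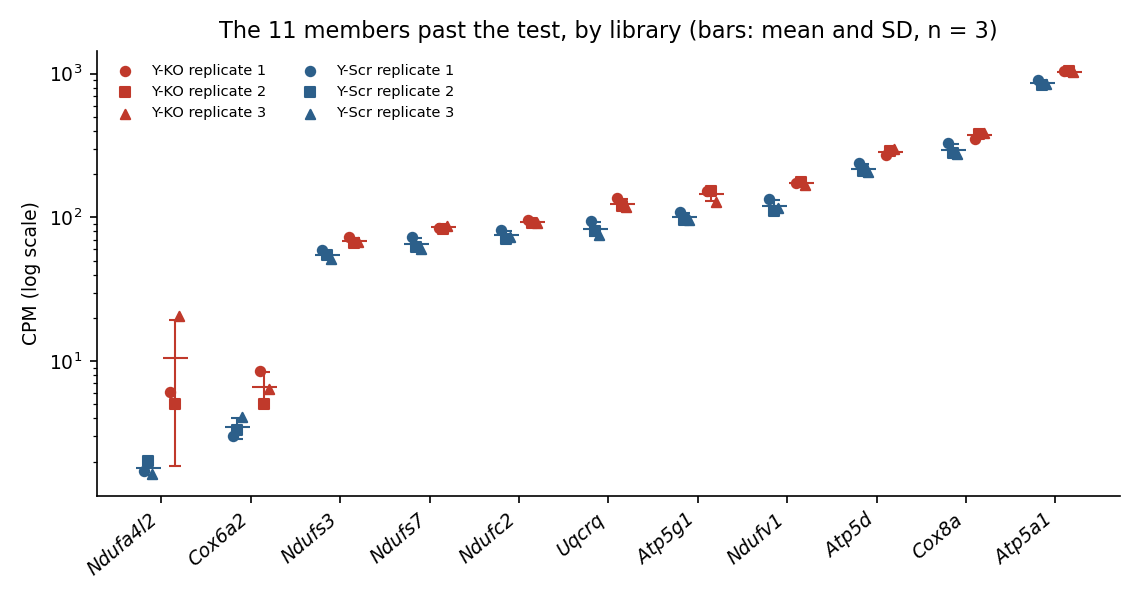
CPM of the 11 called genes in each library (log axis), with 1 point per library and bars for the mean and SD of 3 libraries. In each gene the 3 Y-KO points lie above the 3 Y-Scr points, most widely in Ndufa4l2, where Y-KO replicate 3 is at 20.6 CPM.

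Among the 12 assembly factors, which build complexes I and II without remaining in them, 0 were called by edgeR's quasi-likelihood test and 2 had an unadjusted p under 0.05. DESeq2 called 1 and limma-voom 0. The median log2 fold change was 0.12, or -0.02 with library size alone as scaling. Sdhaf1, needed to insert the iron-sulfur clusters of Sdhb, stood at 23.0, 25.2 and 29.0 CPM in Y-KO, against 22.2, 16.6 and 16.3 in Y-Scr (log2 fold change 0.48, SE 0.16, edgeR adjusted p = 0.0722). Ndufaf5, a complex I assembly factor, was at 13.2, 10.3 and 11.3 against 18.3, 14.2 and 14.2 CPM, with all Y-KO libraries below (log2 fold change -0.42, SE 0.17, edgeR adjusted p = 0.125).

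Member genes are short, and fold changes over all genes followed gene length, taken as the summed exon length in the annotation. The tested members had a median exon length of 1718 bases against 3561 for all genes tested, and 71 of the 95 were in the shorter 2 of 5 length classes. Among genes with a mean of at least 20 CPM, the median log2 fold change per class, from the shortest to the longest, was 0.18, 0.17, 0.10, 0.05 and -0.03. For the members of the same classes it was 0.20 (34 genes), 0.24 (25), 0.18 (13), 0.17 (4) and 0.19 (3). In the shortest class, which holds the most members, their median was close to that of all genes. Y-Scr replicate 1 was the highest of its group in 85 of the 95 members (89.5%) and in 37.4% of all genes tested, and it lay 0.12 above its group mean in the shortest class and 0.08 below it in the longest (log2). With the length trend removed, an alternative chosen after seeing the data, 6 members were called higher (Ndufv1, Ndufs1, Uqcrq, Ndufa4l2, Atp5g1 and Atp5d) and 2 lower (Cox7b and Ndufaf5). The background was then 6.51% higher and 9.42% lower, and the members' median log2 fold change was 0.08 against -0.08 over all genes. Under that setting the median of complex V was -0.01, whereas that of the mitochondrially encoded transcripts was 1.15. The source of the length trend was not tested.

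**Figure D5:**
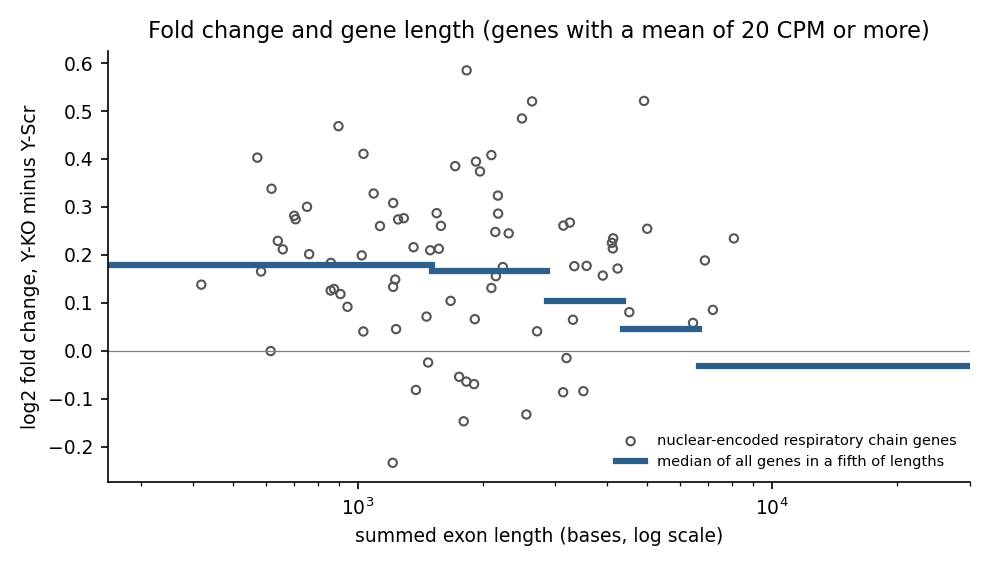
Each circle is 1 nuclear-encoded respiratory gene with a mean of at least 20 CPM, placed by its summed exon length (bases, log axis) and its log2 fold change (Y-KO minus Y-Scr); blue lines give the median of all such genes in each of 5 length classes. The blue lines fall from 0.18 to -0.03, and most circles lie above 0 in each class.

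Genes that work with the respiratory chain were read from lists of other pathway genes, of which 11 of 89 tested were called higher and 1 lower. That was 13.5% called, against 16.1% of all genes tested (7.82% higher and 8.27% lower), so the number of calls was near the background. The same background applies to each list below. Of 34 further assembly factors, 1 was called: Cox15, for heme A synthesis, at 53.1 ± 2.79 CPM in Y-KO, against 42.8 ± 1.69 in Y-Scr. Of 21 genes for electron carriers, ubiquinone synthesis and other quinone-linked enzymes, 2 were called, both of ubiquinone synthesis. Pdss1, which makes the side chain, stood at 20.5 ± 1.18 against 11.4 ± 0.886 CPM (SD, n = 3; log2 fold change 0.84, SE 0.13). Coq7, a hydroxylase of the ring, stood at 27.5 ± 3.47 against 15.5 ± 0.301 CPM (log2 fold change 0.83, SE 0.13). Cycs, the gene for cytochrome c, was not called (log2 fold change 0.32, edgeR adjusted p = 0.148).

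Of 18 regulators of mitochondrial genes, 3 were called higher and 1 lower. Lrpprc, which stabilises mitochondrial mRNAs, stood at 108, 109 and 92.3 CPM in Y-KO, against 66.0, 70.2 and 69.3 in Y-Scr (log2 fold change 0.59, SE 0.09). Twnk, the helicase of mitochondrial DNA, and the nuclear receptor gene Esrra were called higher with log2 fold changes of 0.42 and 0.37. The coactivator gene Ppargc1a was low and lower in Y-KO, at 1.24, 1.17 and 1.43 against 3.91, 3.28 and 3.14 CPM (log2 fold change -1.43, SE 0.27, edgeR adjusted p = 0.010). None of the factors Nrf1, Gabpa, Yy1 and Tfam was called, with log2 fold changes of -0.19, -0.04, -0.11 and 0.05. Of 16 citrate cycle and pyruvate dehydrogenase genes, 5 were called higher (Sucla2, Cs, Suclg2, Mdh2 and Pdhb, log2 fold changes of 0.27 to 0.40) and 0 lower.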

How the data were processed

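The 3 Y-KO and 3 Y-Scr libraries hold poly-A RNA of the CD45-negative sort, made with a stranded kit, per the labels. The table deposited by the authors holds whole-number counts for each gene, not normalized. Counting used featureCounts 1.5.3, per the file headers, and the Ensembl 112 annotation, with default options, by which strand is ignored, each read of a pair counts alone, and reads matching more than 1 place or gene are dropped. Per the submitters' processing notes, FastQC 0.12.1, MultiQC 1.13, Trimmomatic 0.39, STAR 2.5.2b and build GRCm39 were used. Of small counts from 2 to 20, 80.3% to 82.3% were even. Of the members, 16 share over 10% of their exon bases with another gene, and those with pseudogene copies may be undercounted.

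Symbols came from an older annotation and matched 51880 gene IDs (90.7%). The members, the lists and the rule for named genes were chosen with earlier results of these data known. Named were up to 5 members per complex and among assembly factors by smallest p, the paralogue pairs, the member with the highest RPKM per complex, and up to 3 genes of each other list. Genes named beyond that rule (such as Cox7b, Cox7b2, Cox8c, Ndufs1, Atp5g2, Atp5c1, Atp5e, Cycs, Esrra, Mdh2, Pdhb and the motif-binding factors) were chosen after their values were seen.

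Counts were tested with edgeR 4.0.16 (R 4.3.3): filterByExpr (minimum count 10, minimum total 15) left 17837 genes, scaling was by TMM, and Y-KO was set against Y-Scr in the quasi-likelihood test, with Benjamini-Hochberg adjustment over all genes tested and calls at an adjusted p under 0.05. The SE is the log2 fold change over the square root of F. CPM use the TMM-scaled library size and RPKM the deposited exon length. The step was tested on simulated data. The alternatives tried were a replicate block, limma-voom (limma 3.58.1), DESeq2 1.42.0, other scalings, filters, removal of each library, and sums of close library pairs. Added after seeing the data was a lowess gene length trend (span 0.3) as an offset. Coordinates are GRCm39 from the deposited table, except RefSeq promoters (GRCm38.p6). The values of 1 member and of a grouping that needs it are not reported here.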

Additional observations from a re-analysis of the deposited data

How the results depend on the processing

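The count of called respiratory genes (11 with the main settings) depended on tool, scaling and library. All genes called numbered 2871 there. The counts of members and of all genes called were 22 and 3839 with DESeq2, 18 and 3279 with limma-voom, 6 and 2985 with library size alone, 12 and 2898 with RLE scaling, 15 and 2950 without the mitochondrial chromosome, 13 and 3537 with no filter on low counts, and 9 and 2440 with a mean of at least 4 CPM. By complex, DESeq2 called 9 in complex I, 1 in complex II, 5 in complex IV, 5 in complex V and 1 assembly factor. Limma-voom called 7 in complex I, 1 in complex II and 5 in complex V. Library size alone called 1 in each of complexes I, IV and V, 2 in complex III (1 of them lower) and 1 assembly factor (lower). With a mean of at least 4 CPM complex I had 2 calls, without the mitochondrial chromosome complex II had 1, and with no filter the assembly factors had 1. With the length trend removed complex I had 2 and the assembly factors 1. Sums of close pairs (Y-KO replicates 1 and 2, Y-Scr replicates 2 and 3) left 0 members called, 0 in complexes I, III, IV and V, 0 of the other pathway genes and 496 of all genes. Leaving out 1 library gave 1037 to 6393 calls over all genes, 0 to 40 members, 0 to 15 in complex I, 0 to 2 in complex II, 0 to 4 in complex III, 0 to 11 in complex IV, 0 to 7 in complex V, 0 to 1 assembly factors and 3 to 32 other pathway genes. The highest of each range came without Y-KO replicate 3 (for assembly factors also without Y-Scr replicate 1), and no member was called without Y-Scr replicate 2 or 3; the cause was not tested. The 13 mitochondrially encoded transcripts kept 11 to 13 calls in every setting that held them.

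Same-numbered libraries did not deviate together: correlations of their deviations were -0.008, -0.013 and -0.034. Such values cannot show whether the libraries were handled in pairs. With the replicate block there were 6 member calls, all higher, 4 of them among the 11, with 1 each in complexes IV and V and 4 among the other pathway genes. The block moved calls over all genes from 2871 to 2066.

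Of 52 named genes, the sign changed in 3 with the length trend removed, in 2 with library size alone, and in 1 each without Y-KO replicate 1, Y-KO replicate 3 and Y-Scr replicate 1.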

Other observations

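Genes of the ATP synthase and complex I that fell outside the symbol rule were also measured. Atpif1, the inhibitor of the ATP synthase, stood at 56.3, 55.2 and 54.9 CPM in Y-KO and 43.3, 37.4 and 36.1 CPM in Y-Scr, with no overlap (log2 fold change 0.51, SE 0.10, edgeR adjusted p = 0.0111). Usmg5, a small ATP synthase subunit, stood at 77.9, 65.4 and 73.4 against 84.5, 63.5 and 61.3 CPM, with overlapping groups (log2 fold change 0.05). Ndufb1-ps, annotated as a noncoding RNA, stood at 23.3, 19.7 and 19.98 against 25.1, 19.9 and 20.5 CPM, also with overlap (log2 fold change -0.06).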
